A study of Homo sapiens with 12 samples.

Results

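The expression of 9 genes of lipid droplets and fatty acid handling was followed across 786O cells, a clear cell renal cell carcinoma (ccRCC) line that lacks functional VHL, and WT8 cells, which derive from 786O and express wildtype VHL. The genes were chosen by name, and each of the 9 names was found among the 38021 gene names of the count table. They encode the droplet coat protein PLIN2, the lipase PNPLA2 with its inhibitors G0S2 and HILPDA, the secreted factor ANGPTL4, the receptors VLDLR, SCARB1 and CD36, and the mitochondrial gatekeeper CPT1A. Both lines carried a lentiviral shRNA, either a scrambled control (shControl) or one against BMAL1 (shBMAL1), and had been selected with puromycin. RNA was sequenced from what the labels call 3 biological replicates of each of the 4 groups, 786O shControl, 786O shBMAL1, WT8 shControl and WT8 shBMAL1, and 12 libraries resulted. Each line was represented by a single control and a single BMAL1 shRNA. How the replicates were separated is not given in the sources used here, so the p-values measure the spread between these libraries.

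Clear cell carcinomas take their name from cytoplasm that appears empty because it holds lipid and glycogen. Cells keep triglycerides and cholesteryl esters in droplets coated by perilipins, release fatty acids from them by lipolysis, and burn the fatty acids in mitochondria after CPT1 has coupled them to carnitine. Lipids from outside enter through lipoprotein receptors and through fatty acid carriers. VHL marks the HIF alpha subunits for degradation, and several genes of lipid storage are known HIF targets. BMAL1 is the circadian transcription factor that pairs with CLOCK and binds E-boxes.

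The labels were checked first. BMAL1, listed as ARNTL, had 464, 378 and 423 counts in 786O shControl and 142, 128 and 141 in 786O shBMAL1. In WT8 it had 332, 355 and 309 counts with shControl and 56, 72 and 58 with shBMAL1. VHL had between 17.6 and 21.3 CPM (counts per 1000000, scaled by TMM) in the 786O libraries and between 631.2 and 1020 CPM in WT8. Totals per library lay between 33182005 and 36477484 counts. All 7 markers of renal epithelium and carcinoma, among them PAX8 and KRT18, had at least 1 CPM in some library. EPCAM ranged from 0 to 10.2 CPM. The sum of the 7 was 5690 to 6086 CPM in 786O with shControl and 6320 to 6461 with shBMAL1. In WT8 that sum was 4365 to 4410 CPM with shControl, and with shBMAL1 it was 3451 to 3578 CPM. VIM had the highest level of the 7, 1791 to 4609 CPM over the libraries, and weighs most in these sums. None of 13 markers of immune, endothelial, liver, fat or red blood cells reached 1 CPM, and their sum was 1.66 to 2.50 CPM in WT8 shControl, the highest group, against 0.379 to 0.540 CPM in 786O shControl, 0.403 to 0.718 in 786O shBMAL1 and 0.638 to 1.04 in the shBMAL1 libraries of WT8. Their part in the results was not tested. CD3E, MS4A1 and LEP had 0 counts in all 12. WT8 is a separately derived population, so VHL cannot be told apart from other differences between the lines.

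The genes are described below as CPM in each library, then as the fitted log2 change with its standard error (SE). A gene was called changed at an adjusted p under 0.1 by the quasi-likelihood test of edgeR, where p-values were adjusted over all 16838 genes tested by the Benjamini-Hochberg method. All adjusted p-values given are edgeR's unless another tool is named. Of the 9 genes, 8 passed the filter on low counts and were tested. CD36 was not. In bulk RNA, fewer cells of a type and less RNA per cell cannot be told apart.

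**Figure D1:**
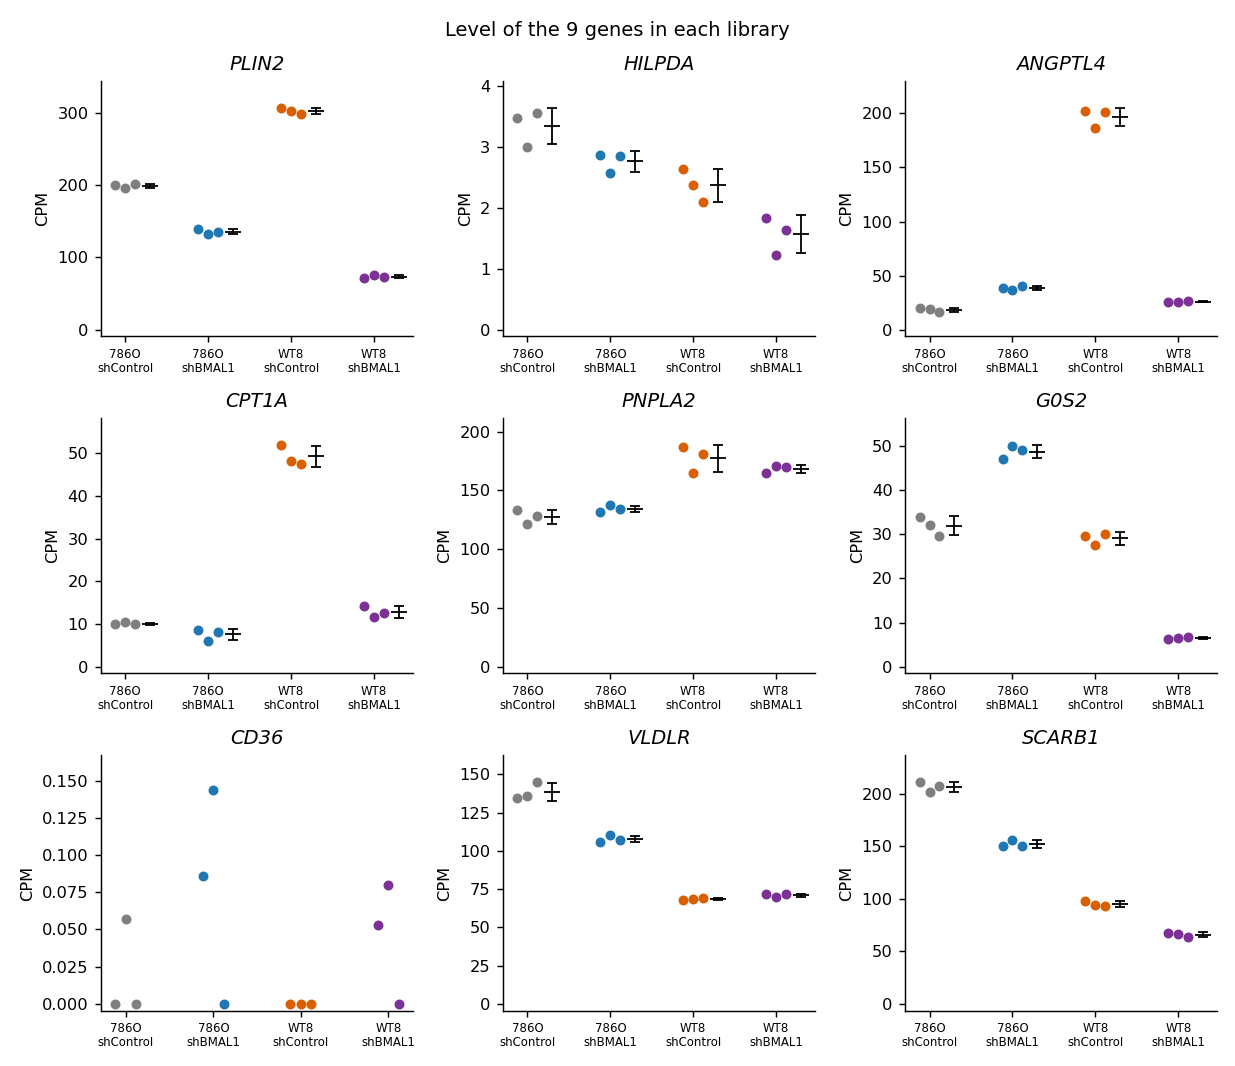
CPM (vertical axes, each starting near 0) of the 9 genes in the 4 groups. Points are libraries, and the bar beside them is the mean ± SD of 3 libraries (not drawn for CD36, which had at most 5 counts in a library). PLIN2, ANGPTL4 and CPT1A are highest in WT8 shControl, G0S2 is lowest in WT8 shBMAL1, and SCARB1 is lower in every WT8 library than in any 786O library.

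PLIN2 coats cytoplasmic lipid droplets and is the perilipin typical of cells outside fat tissue. Its transcript was lower with shBMAL1 in both lines, and far more so in WT8. The gene lies on GRCh37 chromosome 9, from 19108373 to 19149288 on the minus strand. PLIN2 had 199, 195 and 202 CPM in 786O shControl and 139, 132 and 136 CPM in 786O shBMAL1. The WT8 values were 307, 303 and 298 CPM with shControl and 71.8, 76.1 and 72.5 CPM with shBMAL1. The ranges of the 4 groups did not overlap, and the order ran from WT8 shControl through 786O shControl and 786O shBMAL1 to WT8 shBMAL1. With shBMAL1 PLIN2 changed by log2 -0.55 (SE 0.04, adjusted p 4.66e-13) in 786O, a 1.47-fold fall. In WT8 the change was -2.04 (SE 0.04, adjusted p 4.87e-30), or 4.12-fold. The difference between these changes, the interaction, was -1.49 (SE 0.06, adjusted p 1.98e-21). The order of the lines differed between the shRNAs. With shControl, PLIN2 was 1.52-fold higher in WT8 (log2 0.61, SE 0.04), and with shBMAL1 it was 1.85-fold lower there (log2 -0.88, SE 0.04). Genes with a larger change than PLIN2 in WT8 made up 6.94% of those tested.

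Promoter sequences of RefSeq (GRCh38.p14, 250 bases before to 50 after a start site) were matched for 7 of the 9 genes, with 6 windows for CD36 and 1 for each of the others, 12 in all. They are shown for PLIN2, ANGPTL4 and G0S2, which moved most with shBMAL1 in WT8, and for PNPLA2, which had no called change with shBMAL1. Both strands were searched for the E-box CACGTG, for the HIF element core ACGTG or GCGTG, and for the PPAR element, a repeat of AGGTCA with 1 base between. Capitals mark E-boxes and HIF cores, where CACGT and CACGC are cores on the opposite strand. An E-box also holds a HIF core on each strand. The windows are chr9:19127443-19127742 (minus strand), chr19:8363905-8364204 (plus), chr1:209675162-209675461 (plus) and chr11:818664-818963 (plus), in the order PLIN2, ANGPTL4, G0S2 and PNPLA2.
PLIN2: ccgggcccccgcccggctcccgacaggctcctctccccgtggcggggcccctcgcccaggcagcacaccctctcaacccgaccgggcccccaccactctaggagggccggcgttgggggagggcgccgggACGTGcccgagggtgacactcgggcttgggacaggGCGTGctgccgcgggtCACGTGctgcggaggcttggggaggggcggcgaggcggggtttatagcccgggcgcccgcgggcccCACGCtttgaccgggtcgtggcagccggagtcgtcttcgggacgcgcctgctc
ANGPTL4: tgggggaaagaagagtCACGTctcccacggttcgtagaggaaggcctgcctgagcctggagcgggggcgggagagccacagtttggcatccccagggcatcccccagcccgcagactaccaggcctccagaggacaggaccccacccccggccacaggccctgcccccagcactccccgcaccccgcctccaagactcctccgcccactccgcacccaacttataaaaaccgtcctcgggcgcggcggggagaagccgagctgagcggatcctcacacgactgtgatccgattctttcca
G0S2: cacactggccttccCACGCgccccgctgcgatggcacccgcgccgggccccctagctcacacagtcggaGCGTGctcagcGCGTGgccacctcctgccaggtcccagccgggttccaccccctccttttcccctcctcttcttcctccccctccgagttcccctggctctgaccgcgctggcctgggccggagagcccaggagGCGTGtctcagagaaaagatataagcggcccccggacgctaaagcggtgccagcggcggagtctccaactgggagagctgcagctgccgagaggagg
PNPLA2: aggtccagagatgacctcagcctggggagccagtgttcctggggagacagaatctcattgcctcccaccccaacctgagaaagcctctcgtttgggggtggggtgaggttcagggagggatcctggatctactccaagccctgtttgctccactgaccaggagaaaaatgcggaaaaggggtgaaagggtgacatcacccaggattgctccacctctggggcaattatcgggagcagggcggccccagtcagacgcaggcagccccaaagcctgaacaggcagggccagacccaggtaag

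The PLIN2 window held an E-box that starts 69 bases before the start site, and 5 HIF cores, 2 of them inside the E-box. It was the 1 window of the 12 with an E-box, a hexamer found in 7.26% of 35116 windows of this length. The G0S2 window held 4 HIF cores, that of ANGPTL4 held 1 and that of PNPLA2 held 0. A core was found in 6 of the 12 windows, beside 48.4% of all windows. CD36, which was not tested for change, supplied 6 of the 12, and 1 of its windows held a core. Counted by gene, 6 of the 7 had a core in some window and 1 had none. A share by gene over all genes was not computed. HILPDA and SCARB1 had no window. The VLDLR window held 5. The PPAR element was found in none of the 12 and in 0.0228% of all windows. An exact match this rare could hardly be met in 12 windows, so its absence here says nothing about these genes. These are matches of letters and not sites shown to be bound.

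PNPLA2, also called ATGL, removes the first fatty acid from stored triglyceride. It lies on chromosome 11, from 818914 to 825573 on the plus strand. Of the 8 genes tested it moved least with shBMAL1 in 786O. PNPLA2 had 133, 122 and 128 CPM in 786O shControl and 132, 137 and 134 CPM in 786O shBMAL1, and the ranges overlapped. The WT8 shControl libraries had 187, 164 and 181 CPM and those of WT8 shBMAL1 164, 170.3 and 169.7 CPM, again with overlap. The log2 values were 0.07 (SE 0.05, adjusted p 0.222) in 786O and -0.08 (SE 0.05, adjusted p 0.158) in WT8, and neither was called. Without WT8 shControl replicate 2 the WT8 value was -0.13 and was called (adjusted p 0.0212). PNPLA2 differed between the lines. It was higher in WT8 than in 786O by log2 0.47 (SE 0.05, adjusted p 4.53e-11) with shControl and by 0.32 (SE 0.05, adjusted p 2.45e-07) with shBMAL1. The interaction of -0.15 (SE 0.07, adjusted p 0.0620) was called. It was no longer called, at -0.14 to -0.11, without 786O shControl replicate 2, 786O shBMAL1 replicate 2 or 3, WT8 shControl replicate 1 or 3, or WT8 shBMAL1 replicate 1, and with no filter on low counts it was -0.13 and not called. A transcript on the opposite strand overlaps PNPLA2 in the annotation.

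G0S2 is a small protein that binds PNPLA2 and blocks its lipase activity. It lies on chromosome 1, from 209848757 to 209849735 on the plus strand, within HSD11B1-AS1 on the opposite strand. The use of strand in counting is not given in the sources used here, so reads of this antisense gene cannot be told apart. G0S2 moved in opposite directions in the lines. It had 34.0, 32.0 and 29.6 CPM in 786O shControl and 46.9, 49.9 and 49.0 CPM in 786O shBMAL1. The corresponding WT8 values were 29.6, 27.4 and 29.99 CPM with shControl and 6.38, 6.44 and 6.75 CPM with shBMAL1. The control groups of the lines overlapped, whereas the shBMAL1 groups were the highest and the lowest of the 4. G0S2 rose by log2 0.61 (SE 0.07, adjusted p 2.73e-09) in 786O with shBMAL1 and changed by -2.15 (SE 0.08, adjusted p 4.42e-23) in WT8, a 4.45-fold fall. The interaction was -2.76 (SE 0.10, adjusted p 2.15e-22). Between the lines with shControl the log2 difference was -0.13 (SE 0.07, adjusted p 0.0779). That call was lost with DESeq2 (adjusted p 0.130), with other scalings, with only the groups compared in the fit, and in 3 of 12 fits without 1 library, those without 786O shControl replicate 1 (-0.09), 786O shControl replicate 2 (-0.14) or WT8 shControl replicate 2 (-0.10).

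HILPDA is another small inhibitor of PNPLA2, induced by hypoxia in many cell types. It lies on chromosome 7, from 128095903 to 128098472 on the plus strand, and shares its strand and most of its length with HILPDA-AS1 of the annotation, so its counts are uncertain. It was a weakly expressed gene here. HILPDA had 119, 105 and 125 counts in 786O shControl and 100, 89 and 99 in 786O shBMAL1. WT8 libraries had 97, 82 and 77 counts with shControl and 69, 46 and 61 with shBMAL1. Every shBMAL1 library was below every shControl library of its line, whereas 786O shBMAL1 and WT8 shControl overlapped. Only the change in WT8 was called (log2 -0.60, SE 0.20, adjusted p 0.00900), while that in 786O was -0.28 (SE 0.18, adjusted p 0.236). The interaction was -0.32 (SE 0.27, adjusted p 0.342), so the changes were not shown to differ. HILPDA was lower in WT8 than in 786O with either shRNA, by log2 -0.50 (SE 0.19, adjusted p 0.0161) with shControl and -0.82 (SE 0.20, adjusted p 4.26e-04) with shBMAL1.

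To set the lipase against its inhibitors and its droplet coat, levels were divided by the length of the canonical transcript (CPM per kb). PNPLA2 had 52.8 ± 2.40 CPM per kb (SD, n = 3) in 786O shControl and 69.6 ± 1.34 in WT8 shBMAL1. The level of G0S2 per kb was 0.689 ± 0.0452 of that of PNPLA2 in 786O shControl and 0.999 ± 0.0125 in 786O shBMAL1. In WT8 the ratio was 0.452 ± 0.0123 with shControl and 0.107 ± 0.00266 with shBMAL1. The libraries of the 4 groups did not overlap in this ratio. HILPDA stood at 0.0464 ± 0.00272 of PNPLA2 in 786O shControl and at 0.0165 ± 0.00351 in WT8 shBMAL1. PLIN2 exceeded PNPLA2 per kb in every group except WT8 shBMAL1, with ratios of 1.99 ± 0.0721, 1.29 ± 0.0620, 2.18 ± 0.144 and 0.556 ± 0.0122 in the order 786O shControl, 786O shBMAL1, WT8 shControl and WT8 shBMAL1. These ratios were formed after the levels had been seen and were not tested.

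**Figure D2:**
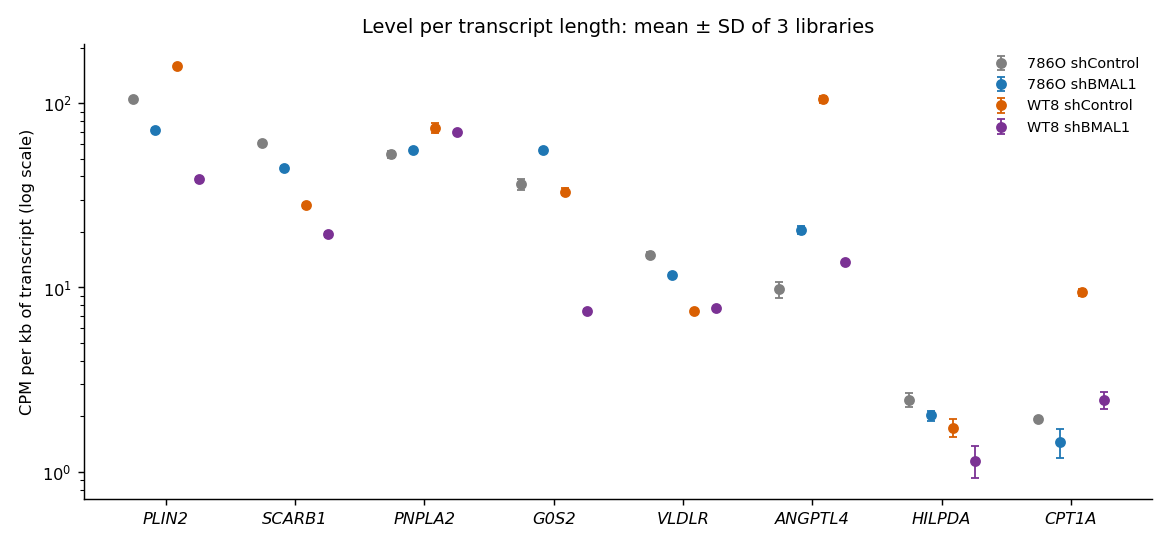
Mean ± SD over 3 libraries of the level per transcript length (CPM per kb, log scale) for the 8 genes tested, with the 4 groups in colour. In WT8 shControl, PLIN2 and ANGPTL4 are the highest of the 8 genes, at 159 and 105 CPM per kb, and in 786O shControl ANGPTL4 is at 9.76.

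ANGPTL4 is a secreted protein that inactivates lipoprotein lipase and so limits the release of fatty acids from circulating triglyceride. It is a known target of both PPARs and HIF. The gene lies on chromosome 19, from 8428173 to 8439254 on the plus strand. It moved most of the 8 genes in WT8 and, like G0S2, moved in opposite directions in the lines. ANGPTL4 had 19.8, 18.7 and 16.3 CPM in 786O shControl and 38.4, 36.6 and 40.4 CPM in 786O shBMAL1. Levels in WT8 were 202, 187 and 201 CPM with shControl and 25.8, 25.4 and 26.1 CPM with shBMAL1. WT8 shControl stood alone at the top, and the other 3 groups followed without overlap, between 16.3 and 40.4 CPM. With shBMAL1, ANGPTL4 rose 2.10-fold in 786O (log2 1.07, SE 0.06, adjusted p 4.57e-16) and fell 7.63-fold in WT8 (log2 -2.93, SE 0.06, adjusted p 1.21e-30). The interaction was -4.00 (SE 0.09, adjusted p 6.08e-29), and 1.46% of the genes tested had a larger one. Between the lines, ANGPTL4 was 10.8-fold higher in WT8 with shControl (log2 3.43, SE 0.06, adjusted p 1.17e-32) and 1.49-fold lower with shBMAL1 (log2 -0.58, SE 0.06, adjusted p 2.63e-10). LPL, the lipase that ANGPTL4 acts on, was looked up after these values were seen and had 1 count in each 786O shControl library and 0 in the other 9 libraries.

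The change with shBMAL1 in WT8 and the difference between the lines with shControl both use the WT8 shControl libraries. The high PLIN2, ANGPTL4 and CPT1A of that group enter both comparisons, one as a fall and the other as a higher level in WT8.

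CPT1A couples long-chain fatty acids to carnitine at the outer mitochondrial membrane, the rate-limiting step of their oxidation. It lies on chromosome 11, from 68522088 to 68611878 on the minus strand. Like PLIN2 it was lower with shBMAL1 in both lines and highest in WT8 shControl. CPT1A had 10.04, 10.4 and 9.98 CPM in 786O shControl and 8.53, 6.02 and 8.24 CPM in 786O shBMAL1. The WT8 levels were 52.0, 48.2 and 47.6 CPM with shControl and 14.3, 11.7 and 12.5 CPM with shBMAL1. The ranges of the 4 groups did not overlap. The log2 change was -0.42 (SE 0.11, adjusted p 0.00143) in 786O and -1.94 (SE 0.09, adjusted p 6.47e-20) in WT8. The interaction was -1.52 (SE 0.14, adjusted p 1.45e-11). The 786O change ran from -0.51 to -0.28 without 1 library, and replicate 2 of 786O shBMAL1 was the lowest. CPT1A stayed higher in WT8 than in 786O with shBMAL1 (log2 0.76, SE 0.10, adjusted p 4.21e-08), though less so than with shControl (log2 2.28, SE 0.09, adjusted p 5.44e-22).

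Both receptors that could be tested were lower in WT8 than in 786O with either shRNA. SCARB1 is the receptor SR-BI, which takes cholesteryl esters from high-density lipoprotein, and lies on chromosome 12, from 125261402 to 125367214 on the minus strand, where a noncoding gene overlaps it on the opposite strand. SCARB1 had 211, 201 and 207 CPM in 786O shControl and 150.3, 156 and 150.0 CPM in 786O shBMAL1. WT8 had 97.9, 93.9 and 92.8 CPM with shControl and 67.9, 66.5 and 64.0 CPM with shBMAL1. The 4 groups did not overlap, and every WT8 library lay below every 786O library. With shBMAL1 it fell in each line, the log2 change being -0.44 (SE 0.04, adjusted p 2.28e-10) in 786O and -0.52 (SE 0.05, adjusted p 2.76e-12) in WT8. The interaction of -0.08 (SE 0.06, adjusted p 0.307) was not called, so the changes were not shown to differ. SCARB1 was 2.18-fold lower in WT8 with shControl (log2 -1.12, SE 0.04, adjusted p 2.07e-22) and 2.30-fold lower with shBMAL1 (log2 -1.20, SE 0.05, adjusted p 6.38e-23).

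VLDLR binds triglyceride-rich lipoproteins and lies on chromosome 9, from 2621182 to 2660056 on the plus strand, overlapped by VLDLR-AS1 on the opposite strand. Its deposited counts were not whole numbers, and those of the other 8 genes were. VLDLR had 134, 136 and 145 CPM in 786O shControl and 106, 110.1 and 107 CPM in 786O shBMAL1. Those of WT8 were 68.1, 68.7 and 69.5 CPM with shControl and 71.9, 70.03 and 71.5 CPM with shBMAL1. It fell with shBMAL1 in 786O (log2 -0.36, SE 0.05, adjusted p 4.78e-08). In WT8 the value was 0.05 (SE 0.05, adjusted p 0.372) and was not called, although the groups did not overlap. The interaction was 0.41 (SE 0.07, adjusted p 2.53e-06), the one positive interaction called among these genes. VLDLR was 2.01-fold lower in WT8 than in 786O with shControl (log2 -1.01, SE 0.05, adjusted p 1.95e-20) and 1.51-fold lower with shBMAL1 (log2 -0.60, SE 0.05, adjusted p 9.52e-14).

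CD36 is a scavenger receptor for long-chain fatty acids and oxidised lipoproteins, and lies on chromosome 7, from 79998891 to 80308593 on the plus strand, with GNAT3 among the genes on the opposite strand of that span. It had 0, 2 and 0 counts in 786O shControl and 3, 5 and 0 in 786O shBMAL1. It had 0 counts in all 3 WT8 shControl libraries and 2, 3 and 0 in WT8 shBMAL1. A count of 0 allows up to 3 counts, or 0.0870 CPM in 1 of the WT8 shControl libraries, for counting error only. No fold is given, and a difference between groups was not detectable at this depth. SCARB1, of the same protein family, had at least 64.0 CPM in every library.

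**Figure D3:**
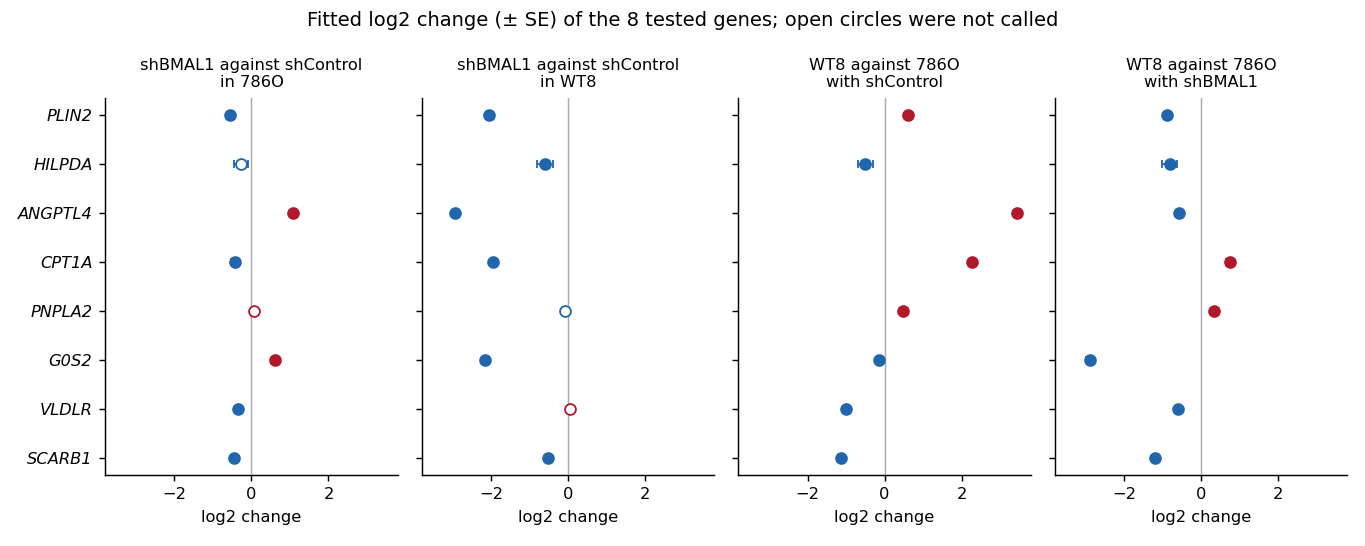
Fitted log2 change (horizontal axes) with its SE for the 8 genes tested in 4 comparisons, one per panel. Red is higher, blue is lower, and open circles were not called. With shBMAL1 in WT8, 6 genes lie left of 0 and are called, with ANGPTL4 at -2.93, while in 786O ANGPTL4 and G0S2 lie to the right at 1.07 and 0.61. Of all genes tested, 36.9% were called lower with shBMAL1 in WT8 and 24.5% higher in 786O.

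Counted together, the 8 genes tested gave 6 calls with shBMAL1 in 786O, 2 higher (ANGPTL4 and G0S2) and 4 lower (PLIN2, CPT1A, VLDLR and SCARB1). Calls made up 48.9% of all genes tested in that comparison, 24.5% higher and 24.4% lower. The changes were modest. ANGPTL4 alone exceeded 2-fold, as did 6.83% of all genes, and when a fold over 1.5 was part of the test it was the single gene of the 8 called. In WT8, 6 genes were called and all 6 were lower, where 36.9% of all genes tested were called lower and 69.8% were called. Of them 4, PLIN2, ANGPTL4, CPT1A and G0S2, fell more than 2-fold, a size that 20.5% of all genes passed in either direction. The median log2 change of the 8 genes was -0.32 in 786O and -1.27 in WT8, beside 0.00 and -0.04 over all genes tested.

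The groups were free of overlap in CPM for 7 of the 8 genes in each of these comparisons, and for 50.9% and 67.6% of all genes. Between the lines with shControl all 8 genes were called, 4 higher in WT8 (PLIN2, ANGPTL4, CPT1A and PNPLA2) and 4 lower (HILPDA, G0S2, VLDLR and SCARB1), where 79.5% of all genes were called, 39.3% higher and 40.2% lower. More than 2-fold differences were seen for 4 of the 8 (ANGPTL4, CPT1A, VLDLR and SCARB1) and 32.1% of all genes. With shBMAL1 all 8 genes again differed between the lines, and 73.0% of all genes did. The groups were free of overlap for all 8 and for 71.0% of all genes. A fold over 2 was reached by G0S2 and SCARB1, and by 24.2% of all genes. Only CPT1A and PNPLA2 of the 8 were then higher in WT8, and 6 were lower (37.0% of all genes), PLIN2 and ANGPTL4 among them. The interaction was called for 6 of the 8, 5 negative and 1 positive, and for 56.0% of all genes (28.5% negative and 27.4% positive). It exceeded 2-fold for ANGPTL4, G0S2, CPT1A and PLIN2, and for 17.4% of all genes. The HIF2α gene EPAS1 had 259 ± 10.1 CPM (SD, n = 3) in WT8 shControl and 90.8 ± 1.79 CPM in WT8 shBMAL1 (log2 -1.51, SE 0.05, adjusted p 8.25e-26). In 786O it had 192 ± 4.31 and 182 ± 7.77 CPM. Its part in the results above was not tested, and the same holds for VHL, whose log2 change with shBMAL1 was -0.60 (SE 0.05, adjusted p 6.67e-13) in WT8.

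The wider pathway was examined with 6 lists of genes that do not include the 9. Of the 85 list genes tested, 21 were called higher and 33 lower with shBMAL1 in 786O, and 28 higher and 36 lower in WT8. Their median log2 changes were -0.03 and -0.05. The medians over all genes tested were 0.00 and -0.04, and the shares called over all genes were those given above, 48.9% and 69.8%. By direction they were 24.5% higher and 24.4% lower in 786O, and 32.9% higher and 36.9% lower in WT8. The same shares and medians over all genes stand beside each list below. Between the lines with shControl, 39 of the 85 were called higher in WT8 and 34 lower, where 39.3% and 40.2% of all genes were.

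Among other droplet proteins, 4 were called higher and 4 lower of 12 tested in 786O, and 1 higher and 4 lower in WT8. The largest change in both lines under the naming rule was in TMEM159, now LDAF1, which works with seipin where droplets form. The 786O libraries had 32.97 ± 1.92 CPM (SD, n = 3) with shControl and 16.1 ± 1.46 with shBMAL1 (log2 -1.03, SE 0.08, adjusted p 1.66e-13). The WT8 libraries had 38.2 ± 1.82 CPM and 11.95 ± 0.107 CPM (log2 -1.68, SE 0.08, adjusted p 5.22e-20). Between the lines with shControl the rule named CIDEB, which was higher in WT8 (log2 0.77, SE 0.11, adjusted p 1.07e-07). PLIN4 and PLIN5, below the rule's mean of 50 counts and named after their values were seen, were also called there with larger fitted values. With shBMAL1, PLIN4 was called in 786O with a larger fitted fall (log2 -1.68, SE 0.65) than TMEM159. PLIN5 was called lower with shBMAL1 in WT8, at a fitted log2 of -6.94, and its value between the lines with shControl was 6.94. Sizes so equal can be set by how the fit handles groups at or near 0 counts. No fold is therefore given for PLIN5. CIDE proteins promote lipid transfer between droplets.

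Of 16 genes of glycerolipid and sterol ester synthesis, 4 were called higher and 6 lower in 786O, and 7 higher and 7 lower in WT8. AGPAT4, an acyltransferase, fell from 128 ± 0.233 to 49.8 ± 1.54 CPM (SD, n = 3) in WT8 (log2 -1.36, SE 0.05, adjusted p 1.61e-22), and its log2 change in 786O was -0.20 (SE 0.05, adjusted p 0.00344). SOAT2, which esterifies cholesterol, rose in both lines, by log2 0.82 (SE 0.27, adjusted p 0.0132) in 786O and 1.29 (SE 0.17, adjusted p 6.14e-08) in WT8. It had 16 to 39 counts in the 786O libraries and reached the rule's mean of 50 counts through those of WT8, which had 79 to 240. The rule also named it between the lines with shControl, where it was higher in WT8 by 2.21 on the log2 scale (SE 0.23).

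Of 9 lipolysis genes, 3 were called higher and 3 lower in 786O, and 5 higher and 3 lower in WT8. PNPLA3, a relative of PNPLA2, fell in 786O (log2 -0.80, SE 0.19, adjusted p 7.20e-04) and rose in WT8 (log2 0.45, SE 0.19, adjusted p 0.0376). The interaction for PNPLA3 was 1.25 (SE 0.27, adjusted p 1.80e-04). MGLL, which splits monoglycerides, fell from 42.4 ± 2.30 to 24.1 ± 0.556 CPM (SD, n = 3) in WT8 (log2 -0.81, SE 0.06, adjusted p 4.89e-15) and rose slightly in 786O (log2 0.14, SE 0.05, adjusted p 0.0248). LIPE, the hormone-sensitive lipase, had 129, 143 and 126 counts in 786O shControl and 4 in each WT8 shControl library. Between the lines with shControl, 3 of the 9 genes were called higher in WT8 and 6 lower. ABHD5, the coactivator of PNPLA2, is outside the naming rule, was picked with its values known, and had a log2 change of -0.15 (SE 0.06, adjusted p 0.0538) in 786O and -0.76 (SE 0.06, adjusted p 9.06e-13) in WT8.

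Of 21 fatty acid oxidation genes, 2 were called higher and 12 lower in 786O, and 6 higher and 12 lower in WT8. The medians were -0.21 and -0.13, beside 0.00 and -0.04 over all genes tested. ACACB makes the malonyl-CoA that inhibits CPT1. It fell in 786O from 8.72 ± 0.514 to 4.47 ± 0.952 CPM (SD, n = 3) with shBMAL1 (log2 -0.96, SE 0.12, adjusted p 4.48e-08), whereas in WT8 it rose from 14.6 ± 1.61 to 26.6 ± 1.62 CPM (log2 0.86, SE 0.10, adjusted p 1.93e-09). ECHS1, the enoyl-CoA hydratase of the oxidation cycle, fell in WT8 (log2 -0.99, SE 0.05, adjusted p 6.09e-20) and in 786O (log2 -0.51, SE 0.05, adjusted p 3.32e-11). ACAA2, the last enzyme of that cycle, was 11.4-fold lower in WT8 than in 786O with shControl (log2 -3.51, SE 0.13, adjusted p 2.33e-18). In that comparison 10 of the 21 genes were called higher in WT8 and 9 lower.

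Of 18 genes of fatty acid uptake, binding and activation, 4 were called higher and 7 lower in 786O, and 5 higher and 8 lower in WT8. ACSL5, which activates fatty acids with coenzyme A, fell in 786O (log2 -0.69, SE 0.17, adjusted p 0.00159) and in WT8 (log2 -1.42, SE 0.20, adjusted p 8.19e-08). LIPG, the endothelial lipase, had 1498, 1394 and 1436 counts in 786O shControl and 3, 10 and 2 in WT8 shControl. It was lower in WT8 (log2 -8.19, SE 0.18, adjusted p 3.50e-29). It had 0 counts in the WT8 shBMAL1 libraries, and no fold is given within WT8. Between the lines with shControl, 6 of the 18 genes were called higher in WT8 and 9 lower.

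Of 9 PPAR regulators, which include the nuclear receptors that sense fatty acids, 4 were called higher and 1 lower in 786O, and 4 higher and 2 lower in WT8. PPARD had the largest change under the naming rule in all 3 comparisons it was applied to. It rose with shBMAL1 from 26.5 ± 0.417 to 47.04 ± 1.08 CPM (SD, n = 3) in 786O (log2 0.83, SE 0.07, adjusted p 8.34e-12) and from 5.83 ± 0.545 to 9.38 ± 0.465 CPM in WT8 (log2 0.68, SE 0.09, adjusted p 3.57e-08). It was 4.53-fold lower in WT8 than in 786O with shControl. In that comparison 4 of the 9 regulators were called higher in WT8 and 4 lower. PPARGC1A, which the rule did not name, had a larger called change with shBMAL1 in 786O (log2 1.22, SE 0.31, adjusted p 0.00175).

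**Figure D4:**
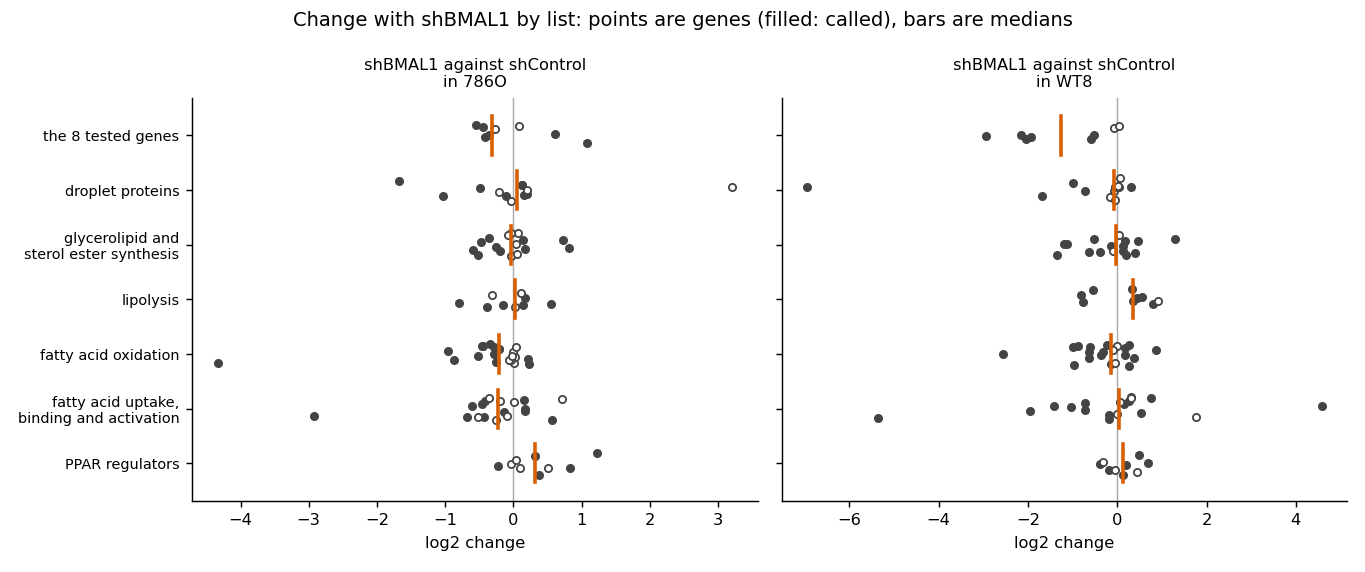
Log2 change with shBMAL1 (horizontal axes) in 786O (left) and WT8 (right) for the 8 genes tested and the 6 lists. Each point is a gene, filled where called, and the orange bar is the median. The median of the 8 genes in WT8 is -1.27, and those of the lists in WT8 lie between -0.13 and 0.36.

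The genes most alike in pattern were sought among 12947 others with a mean of at least 50 counts, by the root mean square difference of log2 CPM over the 12 libraries after each gene was centred on its mean. For SCARB1 it was LIPA, the acid lipase of lysosomes, at 0.0708 where the spread of SCARB1 itself was 0.630. For PLIN2 it was HAS3, at 0.133 against 0.752. For ANGPTL4 it was CDH16, a kidney cadherin, at 0.278 against 1.32. CDH16 had a mean of 9.65 CPM with shControl and 19.1 with shBMAL1 in 786O, and of 73.6 and 9.21 CPM in WT8. For G0S2 it was PTPRU (0.189 against 1.09), closely followed by COL6A1 (0.189). For VLDLR it was PCF11 (0.0635 against 0.422) and for PNPLA2 it was UBE2V1 (0.0495 against 0.209). HILPDA was closest to YWHAG (0.130 against 0.426) and CPT1A to LOC107986858 (0.208 against 1.04). The second nearest were MAEA for SCARB1 (0.0720), ZNF425 for PLIN2 (0.142), LOC107986182 for ANGPTL4 (0.284), ADGRE5 for VLDLR (0.0714), SRD5A1 for PNPLA2 (0.0496), TDRD7 for HILPDA (0.130) and LOC100288152 for CPT1A (0.208).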

How the data were processed

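RNA was isolated on spin columns and sequenced as paired 100-base reads by BGI. The study's methods state that the authors used SeqMan NGen for alignment (GRCh37) and ArrayStar for counting. The submitters' processing notes list STAR, DESeq2 and hg38 without a role. The annotation, the use of strand and the handling of multiple alignments are not given in the sources used here. The deposited values are estimated counts, not scaled between libraries. The table had 38074 lines, and 45 names on several lines were summed. A value of 0.028 stood in for 0 (47.0% of values) and was set to 0. Of the others, 5.67% were not whole, and all were rounded.

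filterByExpr kept 16838 genes and removed 10087. TMM factors ran from 0.948 to 1.04. All 12 libraries entered a single model of 4 group means, made with edgeR 4.0.16 (robust quasi-likelihood) in R 4.3.3, with DESeq2 1.42.0 as an alternative. SE was derived as |log2 change|/√F, which is not a reliable measure of error for genes with few counts in a group. The procedure was run on simulated data in which a small part of the genes was changed, in WT8 shBMAL1 only. Far more genes were called in the real data, and how the procedure behaves in that setting was not tested. The biological coefficient of variation was 5.70%. Positions, overlaps and canonical transcript lengths are from GENCODE version 44 lifted to GRCh37. The members, lists and the naming rule (per list and comparison, the called gene with the largest change among those with a mean of at least 50 counts and no overlap between groups) were chosen with earlier results of these data known. The lists were written from general knowledge. Some list genes passed over by the rule were called with larger fitted changes. Among them were CPT1C with shBMAL1 in both lines and FABP6 between the lines with shControl. Alternatives were other scalings, no filter, DESeq2, a replicate block, a fold over 1.5, fits of the compared groups alone and leaving out each library.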

Additional observations from a re-analysis of the deposited data

Results flagged for a closer look

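The effect of shBMAL1 differed between WT8 and 786O for 6 of the 8 genes tested, by the interaction term of edgeR (log2 change in WT8 minus that in 786O). It was called for 56.0% of all genes tested, 28.5% negative and 27.4% positive. The values of the 6 were -4.00 for ANGPTL4, -2.76 for G0S2, -1.52 for CPT1A, -1.49 for PLIN2, -0.15 for PNPLA2 and 0.41 for VLDLR. ANGPTL4 and G0S2 were higher with shBMAL1 in all 3 libraries of 786O and lower in all 3 of WT8. PLIN2 and CPT1A were lower in both lines. The PNPLA2 value lost its call without any 1 of the 6 libraries named in the account of that gene.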

How the results depend on the processing

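Each of the 40 changes of the 8 tested genes was recomputed under up to 19 other settings, which gave 752 values. None changed direction, 720 stayed on their side of the threshold, 31 were no longer called and 1 was newly called. With a fold change over 1.5 as part of the test, the number of the 8 genes called was 1 with shBMAL1 in 786O (6 without that demand), 4 with shBMAL1 in WT8 (6), 4 for the interaction (6), 4 between the lines with shControl (8) and 4 between the lines with shBMAL1 (8). Over all genes it was 990 in place of 8237 with shBMAL1 in 786O, 4313 in place of 11753 in WT8, 6993 in place of 13378 and 5023 in place of 12295 between the lines with shControl and shBMAL1, and 3134 in place of 9427 for the interaction. VHL in 786O, not called at 0.05, was -0.0022 without 786O shControl replicate 1 and -0.028 without 786O shBMAL1 replicate 3. Scaling by library totals moved the median of all genes between the lines to 0.12 with shControl and 0.11 with shBMAL1. The G0S2 difference between the lines with shControl was then -0.016 (adjusted p 0.841).

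The labels number the replicates alike in each group. Deviations of same-numbered libraries correlated between -0.0457 and 0.0481 across genes, and the best match had the same number in 6 of 36 cases, so the numbers were not used as pairs. With a replicate block the 8 genes gave 6, 6, 8, 8 and 6 calls in the order of 786O, WT8, the lines with shControl, the lines with shBMAL1 and the interaction, as without it. Depth limits CD36, and HILPDA with 46 to 125 counts per library. Values of 2 (14754) outnumbered values of 1 (11117). Whether both reads of a fragment were counted was not tested, and fragments may be fewer than counts.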
